A study of Canis lupus familiaris with 36 samples.

Results

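CLBL-1 cells, a line grown from a spontaneous diffuse large B-cell lymphoma of a dog, were incubated for 24 h with Ibr + AS or with the solvent DMSO alone, and this comparison is described here. Ibr + AS cells received 1 µM Ibrutinib (Ibr) together with 5 µM AS-605240 (AS), and the control cells received only DMSO, in which both inhibitors were dissolved. The members were chosen by their labels: the 3 Ibr + AS libraries and the 3 DMSO libraries at 24 h, 6 of 36 in all, which share cells of passage p121, p126 or p128 as pairs. The whole series holds 12 groups, namely DMSO, Ibr, AS and Ibr + AS at 24, 48 and 72 h, each in the same 3 passages. Poly-A RNA was sequenced from single ends, so reads were counted per gene and no protein was measured. All cells are of 1 line. The p-values therefore measure the spread between its libraries that remains once passage is fitted, estimated over all 12 groups, and not between dogs.

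Ligation or tonic activity of the B-cell receptor, whose signalling chains are CD79A and CD79B, is passed by the kinases LYN and SYK to BTK, which activates PLCG2 and, through calcium and protein kinase C, NFAT and NF-kB. In parallel, PI3K makes the lipid that recruits AKT, which restrains FOXO transcription factors and feeds mTOR and so protein synthesis and growth. Ibrutinib binds BTK covalently and AS-605240 inhibits PI3K, mainly its gamma form, so the combination touches both branches. The ERK branch of the same receptor drives immediate early genes such as EGR1 and FOS. BTK, SYK, LYN, CD79A, CD79B, PLCG2, the catalytic PI3K subunits, AKT1, FOXO1 and FOS are not analysed here, since their identifiers could not be paired with a symbol. The same holds for PIK3R5 and PIK3R6, the regulatory subunits that pair with the gamma form of PI3K.

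Of the markers of B cells, 4 of 9 could be followed. DLA-DRA, a chain of MHC class II, lay between 2597 and 2692 CPM (the reads of a gene scaled by the effective size of its library) in DMSO, and DLA-DQA1, TNFRSF13C and TCF4 averaged 772, 201 and 94.4 CPM over the 6 libraries. MS4A1, CD79A, CD79B and PAX5, among others, could not be paired. Apart from LYZ, the secreted antibacterial enzyme lysozyme, the markers of other cells that could be followed were at most at 2.21 CPM in any library. CD226, IL2RB and TCF7 of T and NK cells had at most 3 reads in any library, and the myeloid receptor TREM2 had 0 in all 6. MPIG6B of megakaryocytes had at most 4. Of the melanocyte markers, SOX10 and MLANA had at most 1 read, but PMEL had between 8 and 28 in each library. PMEL reached 0.917 CPM in DMSO and 2.21 CPM in Ibr + AS. Without LYZ, the 8 other markers summed to between 1.06 and 1.27 CPM in DMSO and between 1.22 and 2.84 CPM in Ibr + AS.

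The 6 libraries held between 10910175 and 14703839 reads on genes, so that 3 reads correspond to about 0.224 CPM in DMSO. The DMSO libraries were alike, whereas the Ibr + AS library of p121 stood apart. Its counts differed from those of the other Ibr + AS libraries with a chi-square per degree of freedom of 26.9 and 26.1, against 8.02 between those of p126 and p128 and between 1.87 and 4.15 among the DMSO libraries. It also had the largest mean distance to its own group of all 36 libraries, 24.9 on regularized log values, while the other two Ibr + AS libraries had 19.8 and 19.97. Of all reads, the top 50 genes held 16.7% to 17.1% in DMSO and 21.5% to 23.6% in Ibr + AS, most in the library of p121. Results are therefore also given without that library for many of the genes and lists that it affects, though not for all.

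Ibr + AS changed the level of a large part of the transcriptome within 24 h, and more genes were higher than lower among those past the fold limit. Genes were called differentially expressed (DEGs) by edgeR's quasi-likelihood test where the p-value after Benjamini-Hochberg adjustment did not exceed 0.05, together with a log2 fold change (log2 FC, Ibr + AS over DMSO) beyond 1 in either direction. Of 18670 genes tested, 1542 were DEGs (8.26%), of which 1151 were higher (6.16%) and 391 lower (2.09%). At the adjusted p-value alone 34% of genes passed, 3184 genes higher (17.1%) and 3164 lower (16.9%). At that limit more were lower than higher among genes averaging 1 CPM or more (3076 against 2808) and, over all genes, without the Ibr + AS library of p121 (3131, 16.8%, against 2889, 15.5%). The median log2 FC was 1.62 among the higher DEGs and -1.35 among the lower, and 393 rose by more than 2 on the log2 scale against 64 that fell by more than that. The direction was the same in all 3 passages for 1515 of the 1542, a count that the choice of genes itself favours. In bulk RNA, a changed level in every cell and a changed share of cells that hold a transcript cannot be told apart.

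Without the Ibr + AS library of p121, 1283 genes were DEGs (6.89%), 951 higher (5.11%) and 332 lower (1.78%), and 1156 of the 1542 were among them (75.0%). Within passages the difference was widest in p121. Of the 10816 genes that averaged 1 CPM or more, 17.7% lay beyond 1 on the log2 scale in that passage, 9.63% in p126 and 9.97% in p128. The excess was mostly among lower genes, with 856 below -1 in p121 against 274 and 263 in the other two, while 1057, 768 and 815 lay above 1. The median of the lower DEGs was accordingly -1.66, -1.21 and -1.14 in p121, p126 and p128, and that of the higher DEGs 1.61, 1.503 and 1.52. Across these genes, the log2 FC of p126 and p128 correlated with a Pearson r of 0.886, and those of p121 with the other two with 0.822 and 0.816; the pairs share no library, and genes are not independent replicates.

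**Figure D1:**
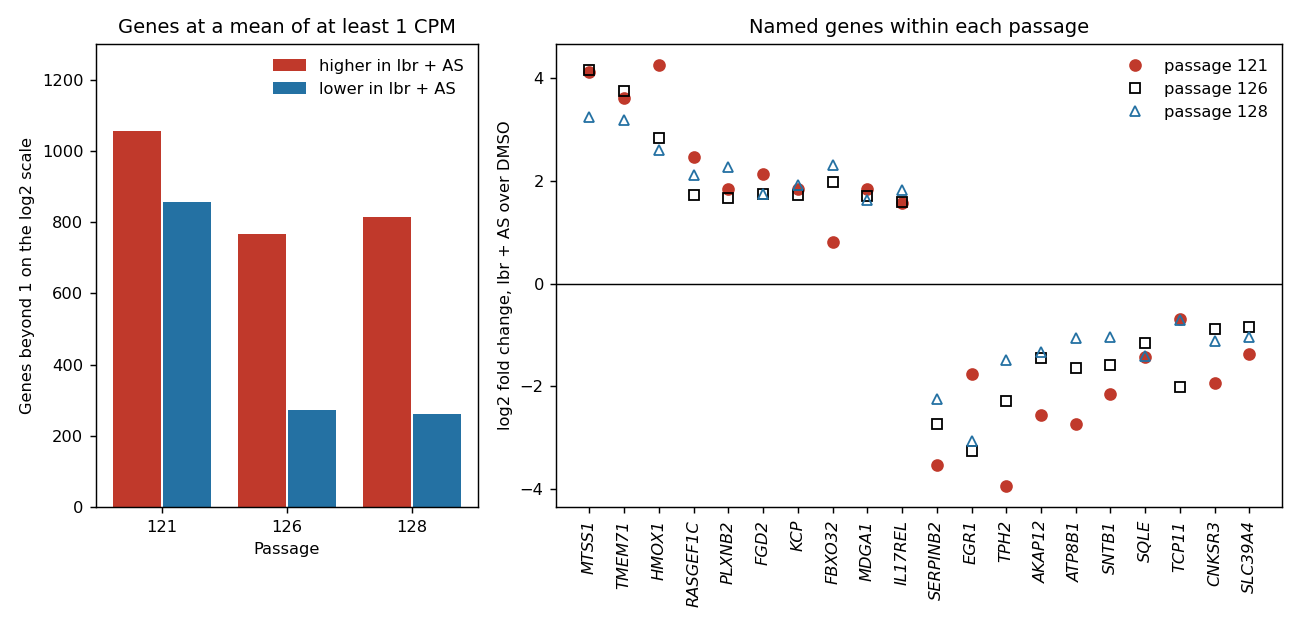
Genes beyond 1 on the log2 scale in each passage (left, bars are counts among genes averaging 1 CPM or more) and the log2 FC of the 20 named genes within each passage (right, 1 point per passage). The bar of lower genes reaches 856 in p121 and 274 and 263 in p126 and p128. Every named gene keeps its sign in all 3 passages because the rule that chose these genes required it.

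Among the genes averaging 1 CPM or more, 7.2% were higher and 2.8% lower DEGs. Symbols could be paired with 1068 of the genes tested, and 80 of these were DEGs (7.49%), 58 higher (5.43%) and 22 lower (2.06%). The strongest rises and falls named below are DEGs among those 1068 that averaged 1 CPM or more, with the same direction in all passages. They are not the strongest among all genes. Without a symbol, the strongest rises by the same rule were those of ENSCAFG00000042931, with 0 or 1 read in each DMSO library and 23.3, 31.2 and 25.9 CPM in Ibr + AS, and of ENSCAFG00000019993, with at most 2 reads in DMSO and 39.5, 33.9 and 20.4 CPM in Ibr + AS. Set against a floor of 3 reads per DMSO library, they were at least 119.6-fold and at least 139.6-fold higher. ENSCAFG00000013904 fell most, from 16.01, 25.6 and 22 to 0.376, 1.66 and 2.49 CPM, and ENSCAFG00000008418 followed with a log2 FC of -3.04 (SE 0.33).

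Among paired genes averaging 1 CPM or more, 3 rose at least 10-fold, and they are of unlike function. MTSS1, which encodes a scaffold that bends membranes and binds actin, had 3.46, 2.95 and 4.05 CPM in DMSO (p121, p126 and p128) and 60.9, 53.9 and 39.1 CPM in Ibr + AS. That is a log2 FC of 3.87 (SE 0.19, adjusted p = 5.58e-20 by edgeR), with every treated library far above every control. TMEM71, which encodes a membrane protein, went from 8.18, 7.86 and 7.92 CPM to 101.5, 106.4 and 72.8 CPM, a log2 FC of 3.53 (SE 0.19, adjusted p = 4.58e-15 by edgeR). For both genes the treated library of p128 was the lowest.

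HMOX1, the inducible heme oxygenase that breaks down heme and is a standard marker of oxidative stress, had 3.25, 3.67 and 4.05 CPM in DMSO and 63.4, 26.8 and 24.9 CPM in Ibr + AS. The groups did not overlap, and the treated library of p121 held more than either of the others by over 2-fold. Its log2 FC was 3.35 (SE 0.36, adjusted p = 7.93e-08 by edgeR), and 2.73 without that library. A fit without that library estimates the spread anew, so its adjusted p-value by edgeR, 2.19e-63, is not comparable with the former and is no stronger evidence.

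The other 7 of the 10 strongest rises had log2 FC between 1.71 and 2.03. They were RASGEF1C and FGD2, exchange factors for small GTPases, the semaphorin receptor PLXNB2, the secreted BMP modulator KCP, the ubiquitin ligase subunit FBXO32, the membrane-anchored MDGA1 and IL17REL, named for its likeness to interleukin 17 receptors. FGD2 had 29.2, 27.97 and 29.4 CPM in DMSO and 129.0, 93.5 and 99.0 CPM in Ibr + AS (log2 FC 1.87, SE 0.10). RASGEF1C, FBXO32 and IL17REL were rare, with at most 2.29 CPM in any DMSO library. None of the 7 overlapped between the groups, which was also so for 1104 of the 1151 higher DEGs.

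SERPINB2, a serpin that inhibits urokinase, fell most among the paired genes averaging 1 CPM or more. It had 3.03, 3.60 and 2.99 CPM in DMSO and 0.188, 0.474 and 0.563 CPM in Ibr + AS (log2 FC -2.94, SE 0.34, adjusted p = 1.24e-12 by edgeR). EGR1, the immediate early transcription factor induced by receptor signalling through ERK, went from 135.3, 109.9 and 107.8 CPM to 39.9, 11.4 and 12.9 CPM. The fall was deep in p126 and p128, with log2 FC of -3.26 and -3.06, and shallower in p121 with -1.76. Its overall log2 FC of -2.70 (SE 0.56, adjusted p = 0.0005035 by edgeR) became -3.01 without the treated library of p121.

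A further 8 completed the 10 strongest falls, with log2 FC between -2.41 and -1.14. TPH2, a tryptophan hydroxylase of serotonin synthesis, was at most at 3.01 CPM, and 1 treated library had 0 reads. AKAP12, SNTB1 and CNKSR3 encode scaffolds of signalling complexes, ATP8B1 a phospholipid flippase, SLC39A4 a zinc importer and TCP11 a protein of the testis. Only SQLE was abundant among them. For AKAP12, ATP8B1 and SNTB1 the order of the treated libraries was the same, lowest in p121 and highest in p128. ATP8B1 illustrates it, with 26.7, 25.7 and 26.3 CPM in DMSO and 3.95, 8.13 and 12.5 CPM in Ibr + AS. TCP11 rested on p126, where its log2 FC was -2.01 against -0.70 in each of the other two, and it was no DEG without that passage (log2 FC -0.75, adjusted p = 0.266 by edgeR). SLC39A4 was below the fold limit without p121, at -0.99.

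**Figure D2:**
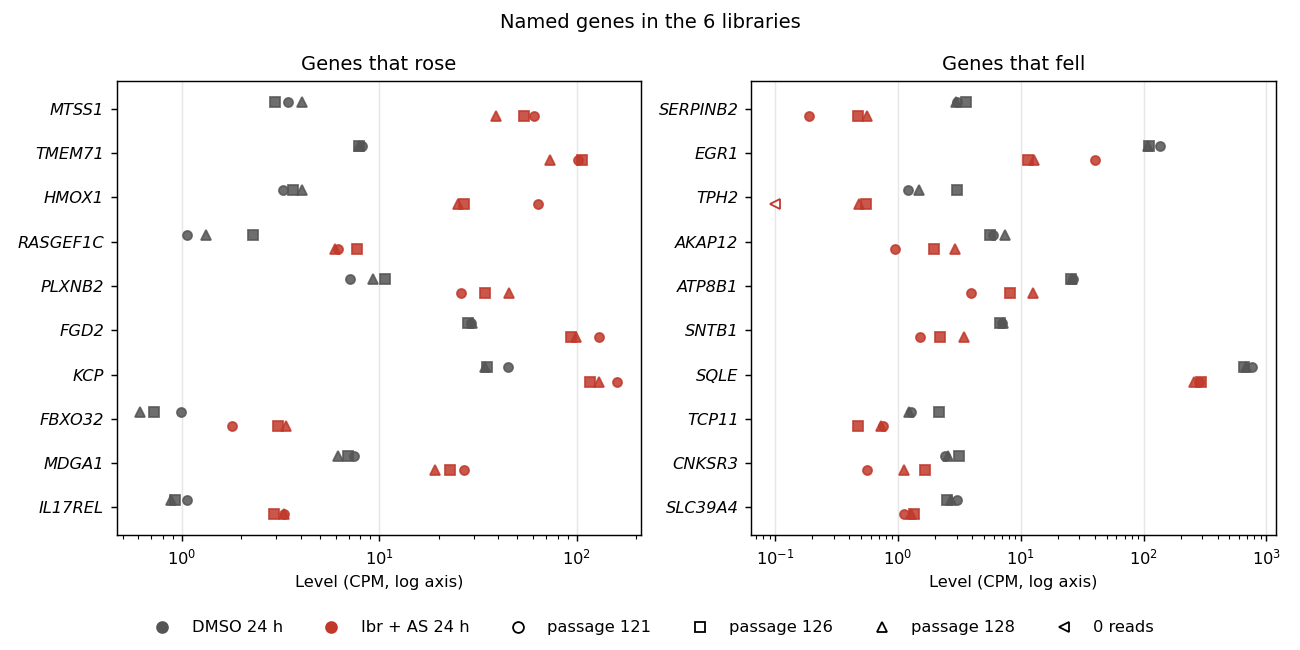
Levels of the 10 strongest rises and 10 strongest falls among paired genes averaging 1 CPM or more, in CPM on a log axis. There is 1 point per library (grey DMSO, red Ibr + AS, shapes for passages). The open triangle at the left edge is a library with 0 reads of TPH2. In each of the 20 genes the red and the grey points do not overlap. The same holds for 1104 of the 1151 higher and 378 of the 391 lower DEGs, so it does not set these genes apart.

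Of 25 listed genes of B-cell receptor and NF-kB signalling, 16 could be tested, and 2 were DEGs (12.5%, against 8.26% of all genes), both higher, with a list median log2 FC of 0.01 against 0.03 over all genes tested. These were DGKA, a diacylglycerol kinase that removes the lipid second messenger made by PLCG2, and TNFRSF13C, the BAFF receptor that carries survival signals to B cells. DGKA had 137.7, 145.9 and 149.4 CPM in DMSO and 322, 316 and 301 CPM in Ibr + AS (log2 FC 1.10, SE 0.09, adjusted p = 2.75e-21 by edgeR). TNFRSF13C went from 103.0, 120.7 and 126.9 CPM to 307.7, 269.5 and 276.7 CPM (log2 FC 1.28, SE 0.10). The 6 libraries of each gene parted cleanly by treatment, as they did for 1104 of the 1151 higher DEGs.

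At the adjusted p-value alone, RAC2 and DEF6, a small GTPase and an activator of it, also rose, by 0.54 and 0.58 on the log2 scale. TNFAIP3, a brake on NF-kB that NF-kB itself induces, fell by 0.41, and INPP5D, the phosphatase SHIP1 that opposes PI3K, fell by 0.25. The INPP5D libraries overlapped, and without the treated library of p121 its log2 FC was -0.12 with an adjusted p of 0.40 by edgeR. NFATC1, a target of calcium signalling, had 37.9, 40.2 and 40.2 CPM in DMSO and 34.7, 44.3 and 51.4 CPM in Ibr + AS. MALT1, the protease that relays the receptor signal to NF-kB, had 43.9, 46.6 and 47.6 against 33.9, 69.8 and 67.5 CPM. Neither passed the test, and in both the treated library of p121 lay below its control while those of the other two lay above. Without that library MALT1 was higher by 0.53 (adjusted p = 1.1e-05 by edgeR, from a fit with its own estimate of the spread). Of the whole list, 6 rose and 2 fell at the adjusted p-value alone in that fit, against 4 and 2 with all libraries.

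In the list of PI3K, mTOR and FOXO signalling, 15 of 22 genes were tested and 2 were DEGs (13.3%), both higher. Among all genes 8.26% were DEGs, and 10% of those averaging 1 CPM or more, so the count is near that share. FBXO32, which encodes the ubiquitin ligase atrogin-1 and is a classical FOXO target, rose from 0.988, 0.721 and 0.616 CPM to 1.79, 3.08 and 3.38 CPM (log2 FC 1.80, SE 0.33, adjusted p = 1.975e-06 by edgeR). DEPTOR, a protein that binds and inhibits mTOR, had 1.91, 1.9 and 1.23 CPM in DMSO and 2.35, 4.18 and 5.39 CPM in Ibr + AS (log2 FC 1.17, SE 0.26). In both genes the smallest rise was in p121, where they were also closest to their controls. At the adjusted p-value alone 5 of the 15 rose (33.3%, against 17.1% of all genes and 26% of those averaging 1 CPM or more) and 1 fell. The 3 besides the DEGs were CITED2, another gene under FOXO control, by 0.73, and AGAP2, a GTPase that binds PI3K, by 0.70. TFEB, the transcription factor of lysosomal genes that mTOR holds back, was the third, by 0.34. Without the treated library of p121, 7 of the 15 rose and 0 fell at the adjusted p-value alone. PIK3R1, 1 of several regulatory subunits of PI3K, had 66.0, 63.4 and 63.98 CPM in DMSO and 61.7, 72.5 and 64.7 CPM in Ibr + AS. Its log2 FC was 0.02 (SE 0.09, adjusted p = 0.964 by edgeR).

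Early response and survival genes went both ways. Of 17 tested, MYC and IRF1 were higher and EGR1 lower among DEGs (17.65%, against 8.26% of all genes). At the adjusted p-value alone 6 rose and 6 fell (35.3% each). The shares at that limit were 17.1% and 16.9% over all genes, and 26% and 28.4% among those averaging 1 CPM or more. MYC, the transcription factor that drives growth and ribosome production, had 122.5, 128.5 and 153.9 CPM in DMSO and 422.9, 330.6 and 325.9 CPM in Ibr + AS. Its log2 FC was 1.39 (SE 0.10, adjusted p = 7.55e-23 by edgeR), 1.24 without the treated library of p121, and the lowest treated library was at over 2 times the highest control. PIM1, a kinase that supports survival, rose by 0.80 (SE 0.14). DAPK1, a kinase that promotes cell death, fell from 485.5, 471.6 and 470.7 CPM to 165.1, 263.8 and 336.2 CPM, with the lowest level in p121 and a log2 FC of -0.92 (SE 0.19). NAB2, which binds and represses EGR1 and is induced by it, fell by 0.45.

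BCL2, the inhibitor of apoptosis, had 21.3, 19 and 19.4 CPM in DMSO and 15.6, 17.8 and 20.7 CPM in Ibr + AS, which overlapped (log2 FC -0.16, SE 0.12, adjusted p = 0.380 by edgeR). MYB, a transcription factor of immature blood cells, passed the adjusted p-value with -0.35 (SE 0.12, adjusted p = 0.0116), but not without the treated library of p121, where the log2 FC was -0.18 (adjusted p = 0.312). NHSL1, a regulator of actin at the cell edge, was at 0.470 CPM in the treated library of p121 and between 1.53 and 1.97 CPM in the other 5 libraries, and it did not pass (log2 FC -0.62, SE 0.31). DSE, an epimerase of dermatan sulfate, was at 318.2 CPM in that library and at 432.1 and 412.6 CPM in the other treated ones against 349.6 to 369.4 CPM in DMSO (log2 FC 0.10, SE 0.09).

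Of 22 genes of cytokines, receptors and the interferon response, 6 were DEGs, all higher (27.3%, against 6.16% of all genes), with a list median of 0.27. At the adjusted p-value alone 8 rose (36.4%, against 17.1% of all genes and 26% of those averaging 1 CPM or more). At that limit 2 fell (9.09%, against 16.9% and 28.4%). IRF1, an interferon regulatory factor that induces MHC and other immune genes, went from 34.5, 35.96 and 36.8 CPM to 121.3, 102.7 and 102.5 CPM (log2 FC 1.59, SE 0.10, adjusted p = 2.26e-27 by edgeR). IRF5, a factor downstream of Toll-like receptors, went from 110.6, 110.6 and 114.4 CPM to 313.5, 287.3 and 285.3 CPM (log2 FC 1.38, SE 0.09). Both genes varied little within a group and the groups lay far apart. APOL6 and GSDMD, the latter the pore-forming protein of pyroptosis, rose by 1.51 and 1.23, TNFRSF13C is given above, and IL5 was rare with at most 1.22 CPM and no DEG without the treated library of p121 (adjusted p = 0.107 by edgeR). Without the treated library of p121, 5 of the 22 were DEGs. Against this direction, IFNGR1, a chain of the interferon gamma receptor, fell by 0.77 and LTA, lymphotoxin alpha, fell by 0.46. IFNG, IL4 and IL13 were at most at 0.0147 CPM on average.

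None of the 8 antigen presentation genes was a DEG, but 6 rose and 1 fell at the adjusted p-value alone (75.0% higher, against 17.1% of all genes and 26% of genes averaging 1 CPM or more). DLA-DOA, a class II chain that tunes peptide loading, had 49.5, 44.3 and 45.0 CPM in DMSO and 81.9, 89.1 and 97.8 CPM in Ibr + AS (log2 FC 0.93, SE 0.11, adjusted p = 8.77e-12 by edgeR). DLA-DRA rose to 3940, 4275 and 4078 CPM (log2 FC 0.61, SE 0.11). The class I heavy chain DLA88 and the peptide transporter subunit TAP1 rose by 0.78 and 0.70. The chaperone CANX, which serves all glycoproteins of the endoplasmic reticulum, was the member that fell, by 0.75. The counts were also 6 and 1 without the treated library of p121.

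**Figure D3:**
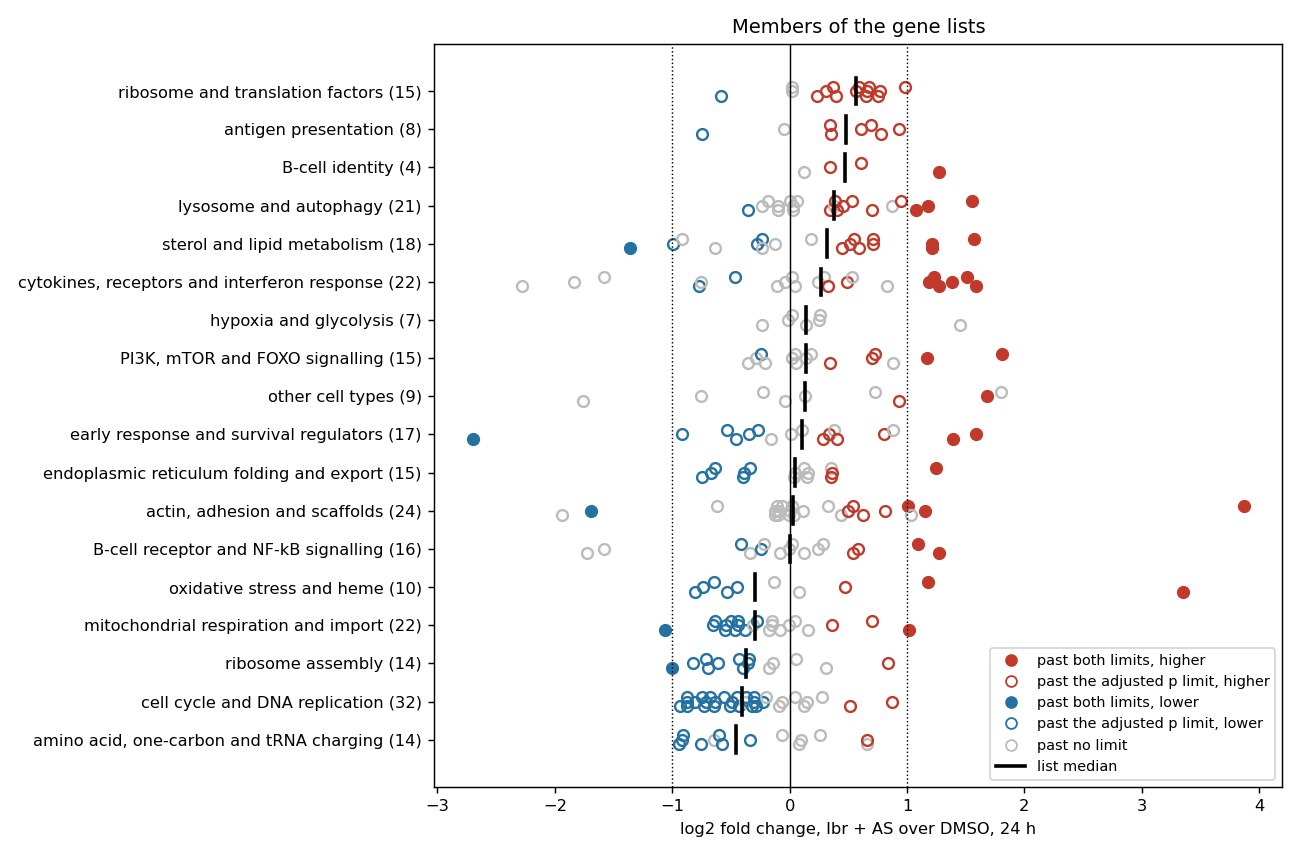
log2 FC of Ibr + AS over DMSO for each tested member of 18 gene lists, ordered by the list median (black bar), with the number tested in parentheses. Filled points are DEGs, open coloured points passed the adjusted p-value alone, grey points passed neither, and dotted lines mark 1 and -1. Ribosomal genes lie mostly to the right of 0 and cell cycle and tRNA charging genes mostly to the left, within the dotted lines.

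Genes of cell division were lower as a group of small changes. Of 33 listed, 32 were tested, and 0 were DEGs, whereas 22 fell (68.8%) and 2 rose at the adjusted p-value alone, with a median log2 FC of -0.40. For comparison, 16.9% of all genes and 28.4% of those averaging 1 CPM or more fell at that limit. CDC23, a subunit of the anaphase-promoting complex, went from 85.7, 79.7 and 80.8 CPM to 40.7, 46.8 and 43.2 CPM (log2 FC -0.93, SE 0.10). CDK2, the kinase of entry into S phase, went from 62.2, 61.1 and 56.9 CPM to 32.2, 34.97 and 32.6 CPM (log2 FC -0.87, SE 0.10). The replicative helicase subunit MCM5, the G1 kinase CDK4 and the nuclear lamin LMNB1 fell by 0.68, 0.65 and 0.81. The treated and the control libraries did not overlap in any of these. That was also so for 378 of the 391 lower DEGs, so it does not set these genes apart.

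Of the 2 that rose, the one with the larger change was CCND3, cyclin D3, the partner of CDK4 and CDK6 in B cells, which had 317.6, 352.9 and 364.6 CPM in DMSO and 658.0, 615.1 and 650.2 CPM in Ibr + AS. It rose by 0.88 (SE 0.09, adjusted p = 3.355e-15 by edgeR). The mitotic kinesins KIF20A and KIFC1 had log2 FC of -0.20 and -0.07 and did not pass. Without the treated library of p121, 21 fell and 2 rose.

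Of 15 genes of the ribosome and of translation factors, 12 rose (80%, against 17.1% of all genes and 26% of those averaging 1 CPM or more) and 1 fell at the adjusted p-value alone, with a median of 0.57, and 0 were DEGs. RPL8 had 4235, 4155 and 4364 CPM in DMSO and 8381, 6305 and 7124 CPM in Ibr + AS (log2 FC 0.76, SE 0.10). RPS12, RPL10A, RPL3, RPS6, RPS18 and RPS10 rose by between 0.57 and 0.77, and EEF1D, a subunit of the elongation factor that recharges eEF1A, by 0.99 (SE 0.10, adjusted p = 2.25e-14 by edgeR). EIF4G2, which initiates translation without the cap-binding protein, was the member that fell, by 0.59. The rise was largest in p121, with a median of 0.72 against 0.49 and 0.53, and the list median was 0.39 without that treated library, with 11 higher and 1 lower. These transcripts are among the most abundant of the cell, and their rise goes with the larger share of reads that the top 50 genes held in Ibr + AS. The part of that share in their CPM was not tested.

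Of 14 genes of ribosome assembly, 9 fell (64.3%, against 16.9% of all genes and 28.4% of those averaging 1 CPM or more) and 1 rose at the adjusted p-value alone, with a median of -0.37. Without replicate 3, 6 fell. PWP1, a chromatin factor of ribosomal RNA transcription, went from 104.6, 106.0 and 102.7 CPM to 53.8, 54.5 and 49.96 CPM. Its log2 FC was -1.005 (SE 0.10, adjusted p = 8.32e-17 by edgeR), at the fold limit itself, and 6 of 13 other settings of the analysis placed it just inside, besides a test against the limit itself. PA2G4 and UTP20 fell by 0.69 and 0.71. BYSL, a factor of the small subunit, rose from 118.7, 122.3 and 120.8 to 249.1, 216.8 and 189.7 CPM (log2 FC 0.84, SE 0.09).

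Of 14 genes of amino acid, one-carbon and tRNA charging metabolism, 7 fell and 1 rose at the adjusted p-value alone, with a median of -0.46. The share that fell was 50%, against 16.9% of all genes and 28.4% of those averaging 1 CPM or more. The asparaginyl-tRNA synthetase NARS1 had 244.1, 221.1 and 210.8 CPM in DMSO and 117.1, 124.8 and 114.1 CPM in Ibr + AS (log2 FC -0.94, SE 0.09). The methionyl-tRNA synthetase MARS1 and the tRNA exporter XPOT fell by 0.92 and 0.91. The serine and glycine enzymes SHMT2 and PSAT1 fell by 0.75 and 0.58. ATF4, the transcription factor that induces many of these enzymes, was at 1008 CPM in the treated library of p121 and at 626.9 and 617.6 CPM in the other two, against 700.6 to 828.2 CPM in DMSO (log2 FC -0.06, adjusted p = 0.743 by edgeR).

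Of 22 mitochondrial genes, 11 fell (50%, against 16.9% of all genes and 28.4% of those averaging 1 CPM or more) and 3 rose at the adjusted p-value alone. There was 1 DEG in each direction (9.09%, against 8.26% of all genes). HSPA9, the mitochondrial HSP70 that pulls proteins into the matrix, went from 548.6, 543.8 and 524.0 CPM to 255.6, 279.5 and 251.1 CPM (log2 FC -1.06, SE 0.09, adjusted p = 1.96e-19 by edgeR). The outer membrane channel VDAC1, the ATP synthase subunit ATP5F1B and the citrate synthase CS fell by 0.64, 0.44 and 0.38. NDUFA6, a small subunit of complex I, had 113.0, 102.4 and 108.1 CPM in DMSO and 269.6, 204.4 and 188.8 CPM in Ibr + AS. Its log2 FC of 1.02 (SE 0.15) was 0.79 without the treated library of p121, under the fold limit but still past the adjusted p-value.

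Of 18 genes of sterol and lipid metabolism, 3 rose and 1 fell as DEGs (22.2%, against 8.26% of all genes). At the adjusted p-value alone 9 rose (50%, against 17.1% of all genes and 26% of those averaging 1 CPM or more). At that limit 4 fell (22.2%, against 16.9% and 28.4%), and 2 fell without the treated library of p121. SQLE, the squalene epoxidase that commits squalene to sterols, had 761.5, 654.8 and 686.2 CPM in DMSO and 281.3, 295.0 and 257.0 CPM in Ibr + AS, a log2 FC of -1.36 (SE 0.10, adjusted p = 4.26e-22 by edgeR). ACAT2, which makes acetoacetyl-CoA at the start of the pathway, went from 254.1, 212.8 and 221.6 to 121.9, 113.8 and 114.1 CPM (log2 FC -0.99, SE 0.09), just inside the fold limit. It was a DEG without the treated library of p121. SREBF2, the transcription factor of sterol genes, fell by 0.28 (adjusted p = 0.00998), and by 0.22 without that library (adjusted p = 0.063).

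The phospholipase PLA2G6 rose from 15.2, 16.1 and 13.3 to 47.9, 42.5 and 44.4 CPM (log2 FC 1.57, SE 0.12), and HACD4, of fatty acid elongation, rose by 1.21. The triglyceride lipase PNPLA3 rose by 1.22 but was at most at 1.34 CPM and overlapped between the groups.

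Of 10 genes of oxidative stress and heme metabolism, HMOX1 and SQSTM1 were DEGs (20%, against 8.26% of all genes). At the adjusted p-value alone 5 fell (50%, against 16.9% of all genes and 28.4% of those averaging 1 CPM or more). SQSTM1, the autophagy receptor p62, had 74.5, 75.4 and 68.5 CPM in DMSO and 188.2, 158.3 and 156.6 CPM in Ibr + AS (log2 FC 1.18, SE 0.10, adjusted p = 1.66e-18 by edgeR). TXNRD1, the thioredoxin reductase, which like HMOX1 is a target of the stress factor NRF2, fell from 394.0, 383.1 and 362.3 to 261.1, 272.1 and 262.8 CPM (log2 FC -0.54, SE 0.09). SOD2, the mitochondrial superoxide dismutase, fell by 0.81, and FECH, which makes heme, fell by 0.45.

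Of 21 lysosomal genes, 10 rose (47.6%, against 17.1% of all genes and 26% of those averaging 1 CPM or more) and 1 fell at the adjusted p-value alone, and 3 were DEGs, all higher (14.3%, against 6.16%). The autophagy receptor SQSTM1, given above, was one of them. The arylsulfatase ARSA rose by 1.07, and by 0.98 without the treated library of p121, where 2 genes of the list were DEGs. SLC66A2, an endosomal membrane protein, rose by 0.95 and the tetraspanin CD63 by 0.53. In the endoplasmic reticulum list, WFS1, a membrane protein of calcium balance, rose from 88.9, 83.1 and 80.3 to 239.3, 169.7 and 201.4 CPM (log2 FC 1.25, SE 0.10). Of the 15 genes in that list 6 fell at the adjusted p-value alone (40%, against 16.9% of all genes and 28.4% of those averaging 1 CPM or more). Among them were the cargo receptor LMAN1 by 0.67 and the coat protein SEC24A by 0.63.

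Of 24 genes of actin, adhesion and scaffolds, 3 rose as DEGs and 1 fell, AKAP12 (16.7%, against 8.26% of all genes), with a median of 0.03. Beside MTSS1, these were CYTH4, an exchange factor for ARF GTPases, by 1.15 and LGALS1, galectin 1, by 1.01. LGALS1 had 164.3 CPM in the treated library of p121 and 101.6 and 109.6 CPM in the other two against 57.8 to 68.1 CPM in DMSO, and its log2 FC without the former was 0.71. The non-muscle myosin MYH9 rose by 0.62, and 16 of the 24 did not pass the adjusted p-value. In the hypoxia and glycolysis list 7 of 11 genes were tested, 0 passed the adjusted p-value alone or with the fold limit, and only HIF1AN, P4HA2 and PFKFB2 averaged at least 1 CPM. HIF1AN had 22.5, 24.4 and 26.2 CPM in DMSO and 15.04, 22.3 and 25.4 CPM in Ibr + AS.

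LYZ was the DEG among the 9 tested markers of other cells (11.1%, against 8.26% of all genes). Without the treated library of p121, 2 of these markers were DEGs, both higher. LYZ had 91.8, 82.8 and 76.4 CPM in DMSO and 314.5, 289.3 and 212.2 CPM in Ibr + AS (log2 FC 1.68, SE 0.12, adjusted p = 1.66e-13 by edgeR). Myeloid TREM2 had 0 reads in all 6 libraries, and CD14 was not analysed here. PMEL, a melanocyte marker, passed the adjusted p-value with a log2 FC of 0.93 (adjusted p = 0.040 by edgeR), at between 8 and 28 reads per library.

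Ibr + AS differed from each single agent given at the same dose and time. Against Ibr alone 537 genes were DEGs (2.88%), of which 416 were higher in Ibr + AS (2.23% of genes) and the rest lower (0.648%). Against AS alone there were 889 (4.76%), of which 684 were higher (3.66%) and 205 lower (1.1%). Set against the same 3 DMSO libraries, Ibr alone gave 210 DEGs (1.12%), 0.873% of genes higher and 0.252% lower, and AS alone 37 (0.198%), with 0.145% higher and 0.0536% lower. Of the 1542 DEGs of the combination, 472 (30.6%) also differed from Ibr alone, 775 (50.3%) from AS alone, 413 from both and 708 from neither. The treated libraries that chose the 1542 enter these comparisons too, so no excess is read from the counts. Over the 1542, the median size of the log2 FC was 1.54 for Ibr + AS, 0.66 for Ibr and 0.42 for AS, all against shared controls.

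SERPINB2 and HMOX1 did not pass the test under either agent alone. SERPINB2 lay between 2.33 and 2.66 CPM in Ibr and between 1.97 and 2.55 CPM in AS, against 0.188 to 0.563 CPM in Ibr + AS, and differed from both (log2 FC -2.53 and -2.402, adjusted p = 1.87e-08 and 5.34e-08 by edgeR). HMOX1 lay between 6.37 and 7.71 CPM in Ibr and between 3.09 and 4.10 CPM in AS, and Ibr + AS exceeded them by 2.44 (SE 0.34) and 3.44 (SE 0.37). MYC, unlike these, rose under Ibr at the adjusted p-value alone, with a log2 FC of 0.35 (adjusted p = 0.00944 by edgeR). Under AS its log2 FC was 0.16 (adjusted p = 0.552 by edgeR). It was at 168.4 to 183.9 CPM in Ibr and 135.6 to 165.1 CPM in AS. Ibr + AS exceeded them by 1.04 (SE 0.10) and 1.24 (SE 0.10). CNKSR3 had log2 FC of 0.02 under Ibr and 0.18 under AS, and was lower in Ibr + AS by 1.28 and 1.45.

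MTSS1 and TMEM71 had a part of their rise under Ibr. MTSS1 was at 8.46 to 10.3 CPM in Ibr and 5.33 to 6.50 CPM in AS, and TMEM71 at 25.1 to 30.4 CPM in Ibr and 9.89 to 12.4 CPM in AS. Both rose as DEGs under Ibr, by 1.41 and 1.74, and both were higher again in Ibr + AS by 2.46 and 1.79 over Ibr.

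EGR1 and FBXO32, by contrast, were not told apart from Ibr alone. EGR1 was at 12.4 to 45.1 CPM in Ibr and at 98.4 to 130.3 CPM in AS. Its difference between Ibr + AS and Ibr was -0.22 (SE 0.59, adjusted p = 0.912 by edgeR), whereas that from AS was -2.70 (SE 0.56, adjusted p = 8.08e-04). FBXO32 was at 2.20 to 2.46 CPM in Ibr and 0.618 to 1.47 CPM in AS, and differed by 0.26 (SE 0.28) from Ibr and by 1.43 (SE 0.32) from AS. RASGEF1C was a DEG under each agent alone, with 1.03 for Ibr and 1.13 for AS, and reached 2.03 in Ibr + AS.

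**Figure D4:**
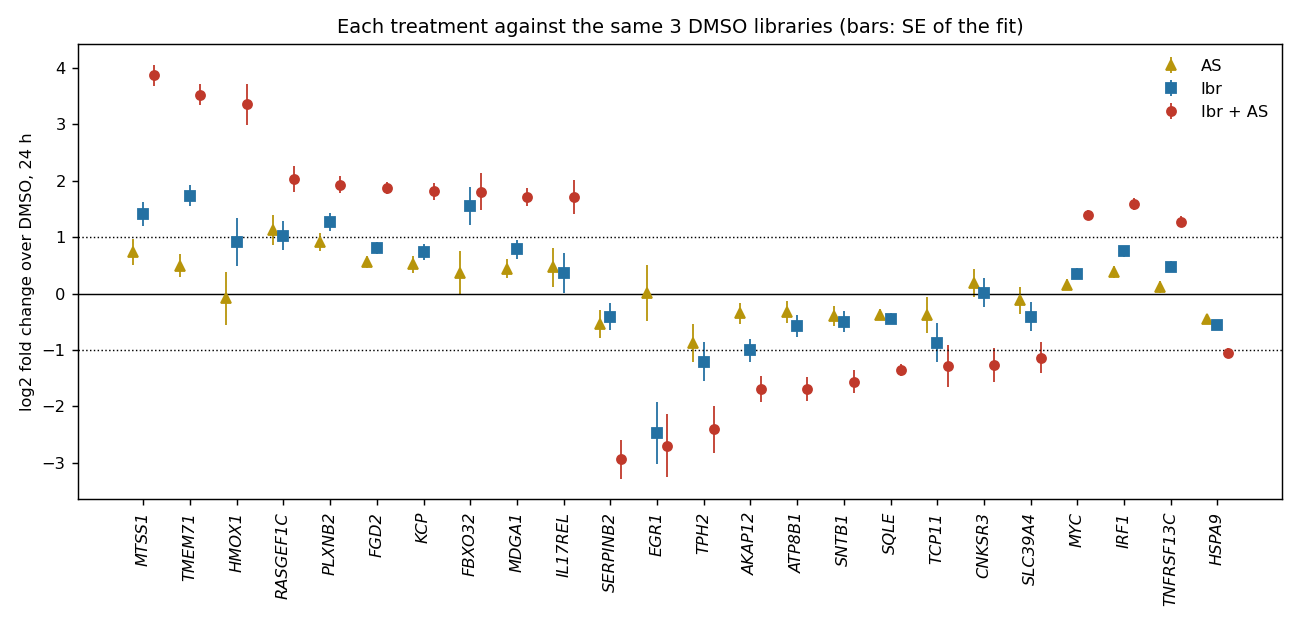
log2 FC over the same 3 DMSO libraries at 24 h for AS (yellow triangles), Ibr (blue squares) and Ibr + AS (red circles), with the SE of the fit as bars and dotted lines at 1 and -1. For EGR1 and FBXO32 the blue and red points lie within their bars of each other, and for SERPINB2, HMOX1 and MYC the red point stands away from both.

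At the level of the lists, 22 cell cycle genes were lower in Ibr + AS than in AS and 18 were lower than in Ibr at the adjusted p-value alone, whereas against DMSO 1 fell and 1 rose under Ibr, and 0 fell and 1 rose under AS. Genes of tRNA charging and amino acid metabolism fell under the single agents as well, 6 of 14 under Ibr and 5 under AS, and of the ribosomal genes 9 of 15 rose under Ibr and 2 under AS. Over all genes tested, 9.39% were lower and 10% higher against Ibr at that limit, 12.3% and 12.4% against AS, 3.78% lower and 5.35% higher under Ibr, and 1.03% and 1.49% under AS. The counts against DMSO rest on shared control libraries.

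The difference between Ibr + AS and DMSO was also set against the differences at 48 and 72 h, each from DMSO of its own time. From 24 to 48 h it changed for 95 genes (0.509%), 10 upward (0.0536%) and 85 downward (0.455%), and from 24 to 72 h for 1466 (7.85%), 400 upward (2.14%) and 1066 downward (5.71%). The library of p121 mattered for the former, where 178 genes passed without it. Of the 1542 DEGs at 24 h, 564 (36.6%) passed both limits for the change from 24 to 72 h. That change ran against the 24 h difference in 528 and with it in 36. Choosing the genes by their 24 h values favours this balance.

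MYC at 72 h was at 257.4 to 279.5 CPM in Ibr + AS and at 269.1 to 276.0 CPM in DMSO, so that its log2 FC was -0.01, a change of -1.40 (SE 0.14, adjusted p = 9.47e-15 by edgeR) from 24 h. At 24 h the DMSO libraries had lain below this level and the Ibr + AS libraries above it. PLXNB2 and IL17REL, higher at 24 h, were lower at 72 h, with log2 FC of -0.73 and -1.26. For MTSS1 and TMEM71 the log2 FC had shrunk to 1.54 and 1.07. HSPA9 and PWP1, lower at 24 h, stood at 0.04 and 0.07 at 72 h. CNKSR3 and SLC39A4 stood at 0.21 and 0.28. DLA-DOA and MYB, no DEGs at 24 h, changed by -1.25 and -1.14 to log2 FC of -0.32 and -1.49 at 72 h.

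For HMOX1, SERPINB2, SQLE, TNFRSF13C and RASGEF1C the change with time did not pass the test. Their log2 FC at 72 h were 3.72, -2.64, -1.49, 1.34 and 2.31, and the tested changes from 24 h were 0.37 (SE 0.55), 0.30 (SE 0.58), -0.14 (SE 0.14), 0.07 (SE 0.14) and 0.28 (SE 0.35). Of 15 ribosomal genes, 11 changed downward and 1 upward from 24 to 72 h at the adjusted p-value alone, and of 32 cell cycle genes 9 changed upward and 3 downward. Over all genes tested, 11.6% changed upward and 13% downward at that limit.

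**Figure D5:**
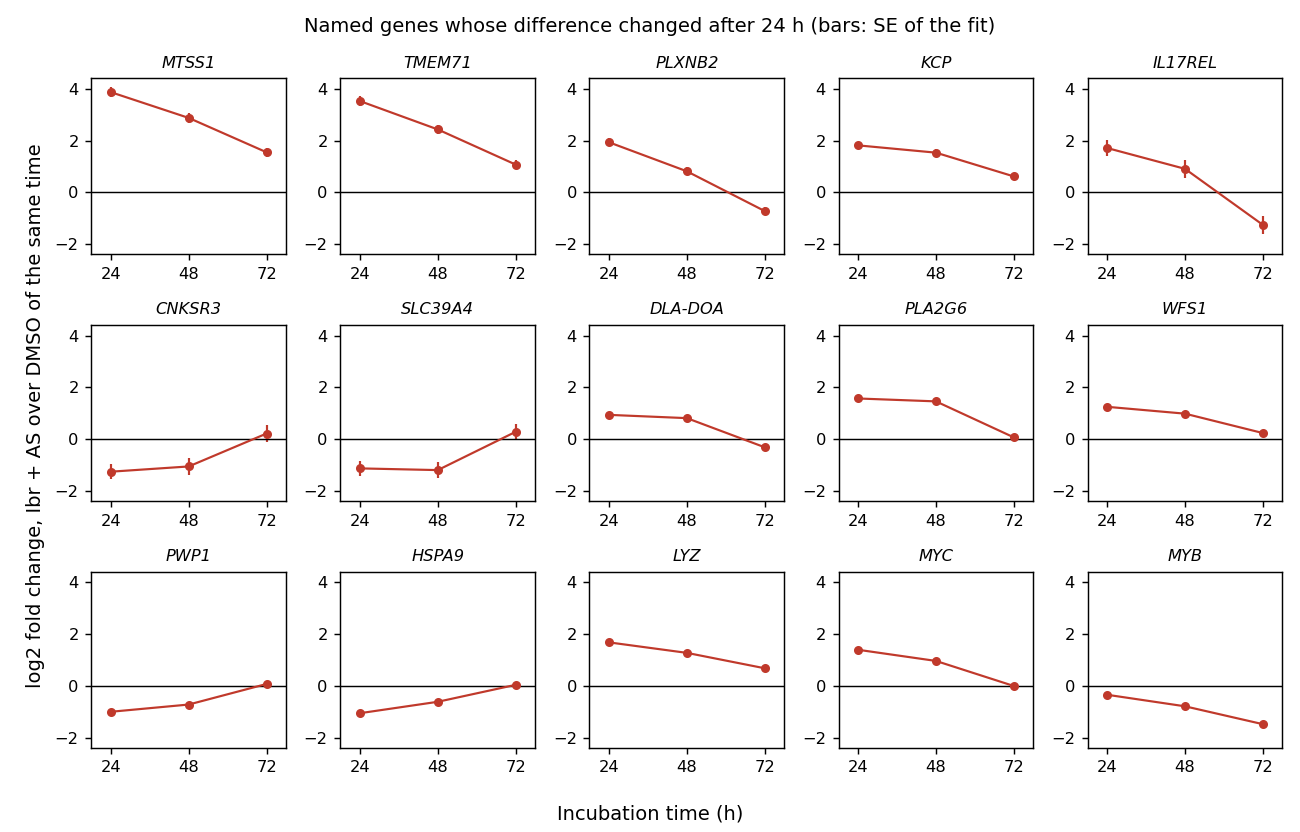
log2 FC of Ibr + AS over DMSO of the same time at 24, 48 and 72 h for the 15 named genes in which the difference from 24 h passed both limits, with the SE of the fit as bars. PLXNB2, IL17REL and DLA-DOA cross 0 between 48 and 72 h, MYB moves away from 0, and MYC, HSPA9 and PWP1 end near 0.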

How the data were processed

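Total RNA of CLBL-1 cells was enriched for poly-A RNA and sequenced from single ends. Per the labels and the study's methods, the authors mapped reads to CanFam3.1 with STAR 2.7.5a, and the table they deposited holds raw counts for each Ensembl gene, not normalized. SAMtools is also named in the submitters' processing notes. Which strand column of STAR was kept is not given in the sources used here, so reads of a gene and of one that overlaps it on the other strand cannot be told apart, and paralogs may share reads.

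The models were fitted with edgeR 4.0.16 under R 4.3.3 (TMM, robust quasi-likelihood fit, passage number and group as terms) on 35 libraries, without the Ibr 72 h library of replicate 3 that the study discarded. Of 30424 genes, 9862 had no read in any library, and 18670 with at least 2 reads over the 35 were tested, with Benjamini-Hochberg adjustment over all of them. Standard errors (SE) are those of the fit, CPM use TMM-scaled totals, and log2 CPM of single passages used a prior count of 1. Regularized log values came from DESeq2 1.42.0. Replicates are passages, and same-numbered libraries share a passage per the labels. After removal of group means, they correlated with r of 0.068, 0.026 and 0.15. The title of DMSO replicate 3 at 24 h names p126 while its characteristics name p128, which was used. The totals of reads limit precision for rare genes, and floors of 3 reads cover counting error only.

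Symbols come from pairs of identifier and symbol that the study gives, 1068 in all and mostly with low Ensembl numbers. The reference annotation at hand is of another assembly, so no coordinates or sequences are given. Lists of genes, alternatives and tests were chosen with earlier results of these data known. Named genes are the 10 paired DEGs with the largest rise and the 10 with the largest fall, each with a mean of at least 1 CPM and the same direction in all passages, the DEG of smallest p in each direction of each list (or the gene of smallest p where a list has no DEG), 6 genes that the study names, and 2 unpaired genes in each direction. A gene that this rule names is not reported here. Other list members are named as examples, chosen after their values were seen.

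The procedure was also run on simulated counts with known changes, set among genes averaging 1 CPM or more. Those counts held no differences between passages and no outlying library, so the run does not vouch for the calls made here. Alternatives were DESeq2, RLE factors, filterByExpr, no filter, glmTreat, no passage term, all 36 libraries, fits on the compared groups only, each replicate left out, the Ibr + AS library of p121 left out, and a sequencing run inferred from the table's header as a further term. Fits that leave libraries out estimate the spread anew, so their adjusted p-values are not comparable in size with those of the main fit.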

Additional observations from a re-analysis of the deposited data

Results flagged for a closer look

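For 15 named genes the difference between Ibr + AS and DMSO changed between incubation times by a direct test (a contrast of the 2 differences in edgeR's quasi-likelihood fit, adjusted p at most 0.05 and a change beyond 1 on the log2 scale). Changes are given as the later log2 FC less the one at 24 h. From 24 to 48 h they were -1.10 for TMEM71 and -1.12 for PLXNB2. From 24 to 72 h, genes that were higher at 24 h changed by -2.33 (MTSS1), -2.46 (TMEM71), -2.66 (PLXNB2), -1.20 (KCP), -2.98 (IL17REL), -1.51 (PLA2G6), -1.02 (WFS1), -1.002 (LYZ) and -1.40 (MYC). Genes that were lower at 24 h changed by 1.48 (CNKSR3), 1.42 (SLC39A4), 1.08 (PWP1) and 1.10 (HSPA9). DLA-DOA and MYB, which were no DEGs at 24 h, changed by -1.25 and -1.14. Most of the genes were named for their values at 24 h, and the 24 h libraries enter the tested change. Of the genes higher at 24 h, PLXNB2 and IL17REL were lower than DMSO at 72 h and passed the adjusted p-value (adjusted p = 1.15e-04 and 0.00165 by edgeR), as was DLA-DOA (adjusted p = 0.015). DMSO itself moved for some of them, from 7.13 to 10.7 CPM at 24 h to 19.6 to 23.3 CPM at 72 h for PLXNB2 and from 122.5 to 153.9 CPM to 269.1 to 276.0 CPM for MYC, and the part of DMSO culture in the changes was not tested.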

How the results depend on the processing

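Under the 13 alternatives the combination gave between 1251 and 1568 DEGs at 24 h, except with glmTreat, which tests against the fold limit itself and called 484 (390 higher, 94 lower). Leaving out 1 replicate in turn gave 1251 to 1494 (955 to 1064 higher, 296 to 464 lower). glmTreat gave 79 against Ibr (72 higher, 7 lower), 229 against AS (202 and 27), 6 for the change from 24 to 48 h (0 upward, 6 downward) and 385 for that to 72 h (45 and 340). Without the Ibr + AS library of p121 the change from 24 to 48 h held for 178 genes (25 upward, 153 downward), and with no replicate block for 6 upward in place of 10. With 1 replicate left out of all groups it held for 86 to 131 genes, 14 upward each time and 72 to 117 downward. The block on passage changed no other count by over 1.5 times, and without it 1528 genes were DEGs, 1496 of them shared. PIK3R1 turned sign without replicate 2 (-0.052, adjusted p = 0.844 by edgeR; up to 0.10 without replicate 1). Scaling by DESeq2 or RLE factors moved the median log2 FC of genes averaging 1 CPM or more by 0.021. PWP1, EEF1D, DLA-DOA, NDUFA6, TCP11 and SLC39A4 crossed the fold limit or lost the test under at least 1 alternative besides glmTreat. Depth is low for genes under 1 CPM, where 372 of the higher and 88 of the lower DEGs lie.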

Other observations

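Other paired DEGs that belong to no list were chosen here after their values were seen. SUN2, a nuclear membrane protein that ties the nucleus to the cytoskeleton, rose from 154.2, 160.0 and 164.8 CPM to 425.6, 384.8 and 385.1 CPM (log2 FC 1.3, adjusted p = 1.81e-25 by edgeR). CTDSP2, a phosphatase, and GOLM1, a Golgi protein, rose by 1.40 and 1.5. ETF1, the release factor that ends translation, fell from 53.97, 50.4 and 51.4 CPM to 22.1, 26.1 and 24.7 CPM (log2 FC -1.12), and PTK2, the focal adhesion kinase, fell by 1.06 with its lowest level, 2.73 CPM, in p121. WNT7B, a secreted Wnt ligand, had 0 reads in each DMSO library and 2.44, 1.26 and 0.402 CPM in Ibr + AS, at least 6.11-fold over a floor of 3 reads per DMSO library.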
